A study of Danio rerio with 12 samples.

Results

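The genes described here encode matrix proteins, the integrins that bind them and the enzymes and chaperones that process collagen. They were taken by symbol from the array annotation, leaving out col1a1a and col1a2, and each was read by its brightest probe set, judged by the mean of the 12 arrays. The rule found 55 genes among the 8793 with a single-gene probe set. Expression had been measured in hearts of adult, sexually mature zebrafish on 12 Affymetrix arrays, 3 for each of 4 groups. The wild-type (WT) fish were of the AB line, and their hearts were unamputated or 7 days past amputation. The dnHIF1a hearts, in the same pair of states, came from a transgenic line that carries cmlc2a:Ert2-Cre-Ert2 with cmlc2a:LnL:GFP, and in addition cmlc2a:LrL:dnHIF1a. The sample titles call these fish dnHIF1a-expressing. By its name cmlc2a:LrL:dnHIF1a holds a dominant negative HIF1a, a subunit of the oxygen-regulated transcription factor, under the heart muscle promoter cmlc2a. The separate construct cmlc2a:Ert2-Cre-Ert2 holds a Cre recombinase of the kind that tamoxifen switches on. The labels do not say whether tamoxifen was given, what the background of the line is or whether arrays of a group came from separate fish. A line difference is therefore a difference between these lines, and p-values measure the spread between these arrays. The series addresses whether hypoxia signalling takes part in the regrowth of heart muscle.

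Matrix proteins form 2 main structures around heart cells. Fibrillar collagens make the fibres of scar and connective tissue, while laminins, nidogen and the network collagens make the basement membrane that coats muscle, endothelium and epicardium. Collagen chains are hydroxylated on proline and lysine inside the cell, folded with the chaperone Hsp47, secreted and then cross-linked by lysyl oxidases outside it. Integrins are paired receptors of an alpha and a beta chain that tie cells to laminin, fibronectin or collagen. In the injured zebrafish heart, epicardium, fibroblasts and endocardium lay down a matrix that is later cleared as muscle regrows. In mammalian cells the genes of prolyl and lysyl hydroxylases and of lysyl oxidase are known targets of HIF-1.

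Values are log2 expression, and a difference is that of 2 group means on the log2 scale ± its limma standard error, with p-values adjusted over all 15502 tested probe sets. A gene was called, and is said to rise, fall or be higher or lower, at an adjusted p under 0.05. Array medians lay between 5.55 and 5.59, and Pearson correlations across probe sets were 0.992 to 0.996 within groups and 0.976 to 0.990 between groups. The files carry no measure of background, so no fold is given where a group mean lies under 4, a line chosen with the data known. Heart muscle markers were bright on all arrays, with myl7 at 14.58 to 14.80 and the mean of 8 measured markers at 13.04 to 13.19. Values of the matrix genes ran from 2.85 (nid1a and hapln2) to 11.31 (sparc) on single arrays. The mean over the arrays was above 8 for 8 of the 55 genes, and 11 had a mean under 4 in all 4 groups. Those 11 were col2a1a, col15a1b, lamc3, nid1a, col9a1b, col9a2, col9a3, col28a2a, hapln2, vcanb and itga6b. Levels of different genes are not compared, since probe sets differ in brightness.

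**Figure D1:**
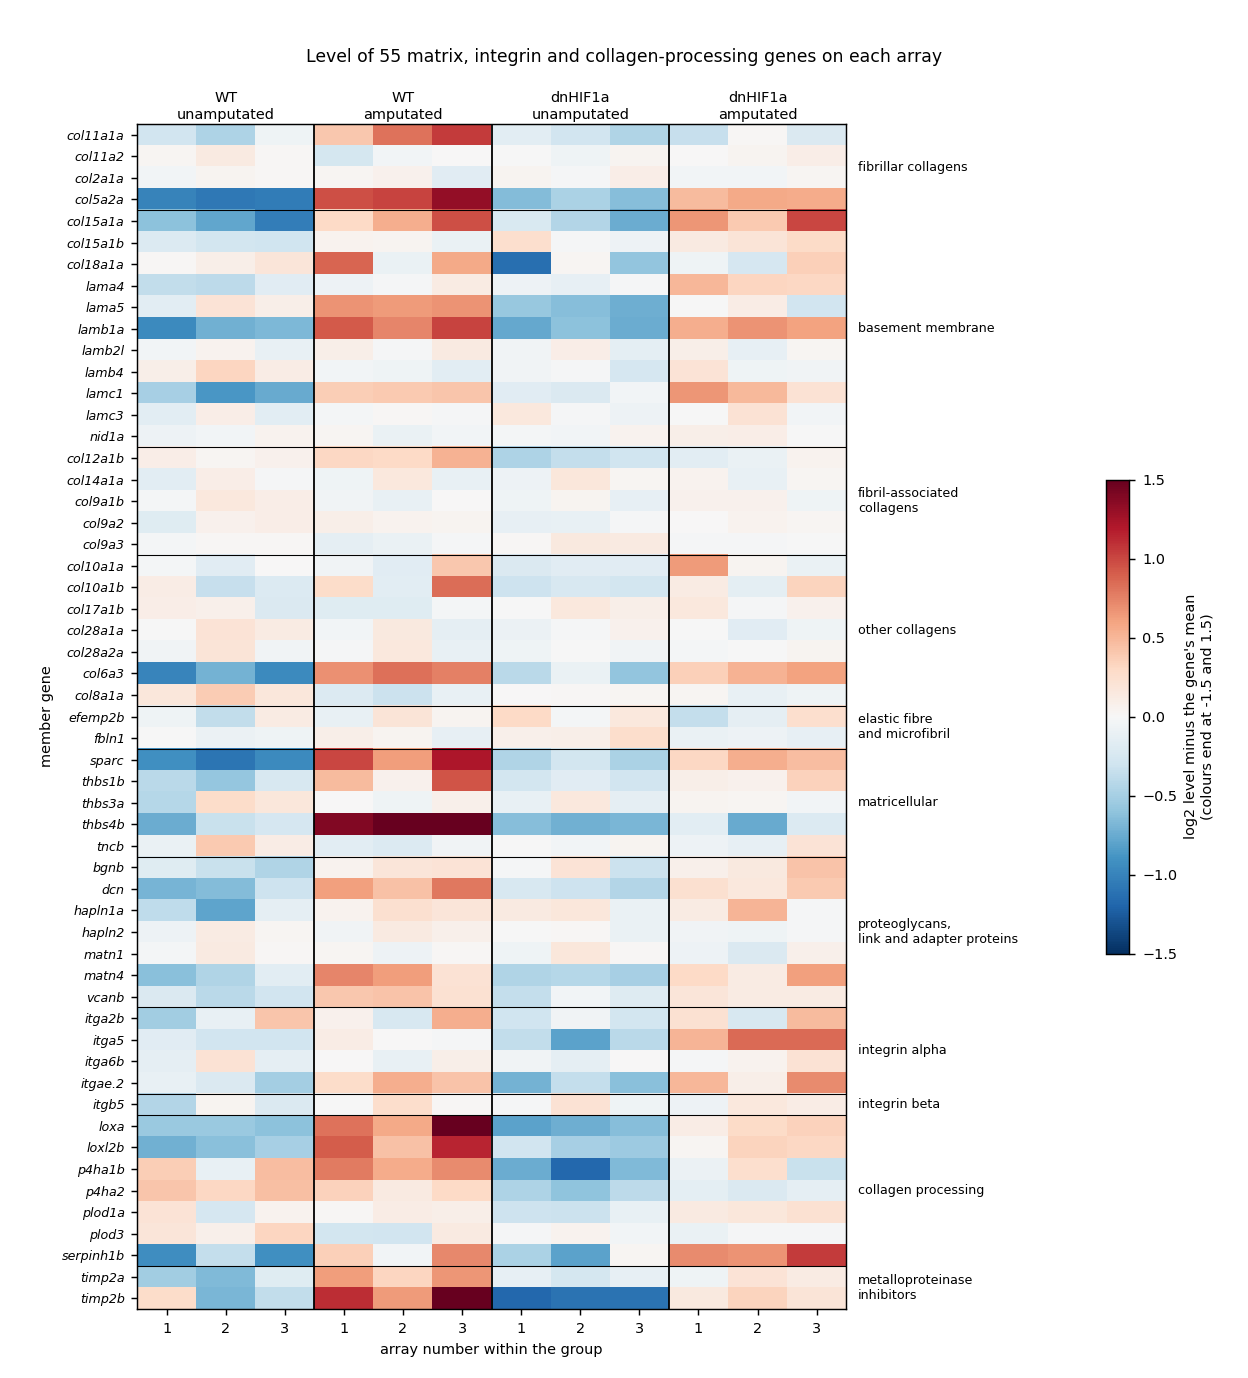
Level of each of the 55 genes on each of the 12 arrays, as the log2 value minus the mean of that gene over all arrays, with rows ordered by role and columns by group and array number. The WT amputated columns are red for col5a2a, col6a3, lamb1a, sparc, thbs4b, loxl2b and timp2b, and the unamputated dnHIF1a columns are blue for p4ha1b, p4ha2, lama5 and timp2b.

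Amputation was followed in WT hearts by a rise of 23 of the 55 genes, or 41.8%, while 11.7% of all genes rose. Only col8a1a and plod3 fell, 2 genes or 3.64%, against 14.5% of all genes. The median difference of the 55 was 0.28 and that of all genes -0.06. Fibrillar and filament collagens, laminin chains, matricellular proteins and the cross-linking enzymes held the largest rises. In dnHIF1a hearts 21 genes rose, or 38.2%, beside 5.83% of all genes. None fell by limma's test (1 at an unadjusted p under 0.05), beside 5.13% of all genes, and the median was 0.26 against -0.02 for all genes. Of the genes that rose, 17 did so in both lines, which is 73.9% of the WT set and 81% of the dnHIF1a set. That overlap was not counted over all genes. Without single arrays the number of genes that rose ranged from 19 to 24 in WT and from 15 to 21 in dnHIF1a.

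Among the fibrillar collagens the gene of the alpha 2 chain of type V collagen, col5a2a, which helps to start type I fibrils, rose most. Its probe set read 7.91, 7.85 and 7.87 on the unamputated WT arrays and 9.89, 9.93 and 10.23 on the amputated ones. In dnHIF1a hearts it read 8.27, 8.44 and 8.28 before and 9.39, 9.48 and 9.47 after amputation. No group overlapped any other. The rise was 4.41-fold in WT (2.14 ± 0.09, adjusted p = 4.39e-08) and 2.17-fold in dnHIF1a (1.12 ± 0.09, adjusted p = 1.55e-05). A second, dimmer probe set of col5a2a, at 3.51 to 4.46, was also called in both lines, with 0.51 (adjusted p = 0.00268) and 0.52 (adjusted p = 0.00499). The type XI collagen gene col11a1a read 4.16, 3.99 and 4.39 in unamputated and 4.86, 5.27 and 5.50 in amputated WT hearts, a rise of 1.03 ± 0.16 (adjusted p = 0.000641). All 6 dnHIF1a arrays lay between 4.0 and 4.47, and the difference there of 0.12 ± 0.16 was not called (adjusted p = 0.726). The cartilage-type genes col2a1a and col11a2 were not called in either line, with differences between -0.17 and 0.06. The list of 6 measured cartilage and bone markers, which leaves out the genes described here, had a mean level of 4.83 to 5.24 over all arrays, and 1 of them, runx2a, rose in WT (1.45 ± 0.31, adjusted p = 0.00556).

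Basement membrane genes rose in part, 5 of 11 in each line, beside 11.7% of all genes in WT and 5.83% in dnHIF1a. The laminin beta 1 gene lamb1a read 6.91, 7.14 and 7.19 in unamputated and 8.78, 8.59 and 8.87 in amputated WT hearts. In dnHIF1a hearts the values were 7.09, 7.24 and 7.12 against 8.41, 8.53 and 8.46. Amputated and unamputated arrays were thus well apart in both lines, 3.17-fold in WT (1.67 ± 0.09, adjusted p = 1.91e-07) and 2.49-fold in dnHIF1a (1.32 ± 0.09, adjusted p = 8.98e-06). The gamma 1 chain gene lamc1, whose product joins beta 1 in laminin trimers, rose by 1.1 ± 0.11 in WT and 0.60 ± 0.11 in dnHIF1a. The alpha chain gene lama5 rose by 0.62 ± 0.11 in WT and 0.59 ± 0.11 in dnHIF1a, with adjusted p = 0.00193 and 0.00546. For the alpha 4 chain gene lama4 the values were 0.32 ± 0.08 (adjusted p = 0.0173) and 0.44 ± 0.08 (adjusted p = 0.00606). A second probe set of lama4, at 4.67 to 4.94, was not called, with -0.02 (adjusted p = 0.888) and 0.02 (0.923). The WT call of the first was lost when either WT unamputated array 2 (0.0596) or WT amputated array 3 (0.0706) was left out, and when only the WT groups entered the fit (0.0579).

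The multiplexin collagen gene col15a1a, whose product sits between basement membrane and fibres, rose 2.67-fold in WT (1.42 ± 0.19, adjusted p = 0.00032) and 2.22-fold in dnHIF1a (1.15 ± 0.19, adjusted p = 0.00258). Its 6 amputated arrays lay between 7.62 and 8.32 and its 6 unamputated arrays between 6.28 and 7.09. The related gene col18a1a, which encodes the precursor of endostatin, varied too much within groups for a call, from 6.63 to 7.79 on the unamputated dnHIF1a arrays alone. Its differences were 0.35 ± 0.28 in WT and 0.57 ± 0.28 in dnHIF1a. The genes col15a1b, lamb2l, lamb4, lamc3 and nid1a were not called in either line, with differences from -0.26 to 0.26. The one nearest to a call was col15a1b in WT (0.26 ± 0.09, adjusted p = 0.0557). It was called without dnHIF1a unamputated array 1 (0.0286), after a repeated quantile normalization (0.0386) and with a trended and robust prior (0.0364).

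Fibril-associated collagens coat the surface of collagen fibres. Of the 5 measured, col12a1b rose by 0.32 ± 0.08 in WT (adjusted p = 0.0167) and by 0.31 ± 0.08 in dnHIF1a (adjusted p = 0.0367). The WT call was lost without WT amputated array 3 (adjusted p = 0.0695). The dnHIF1a call was lost without any unamputated dnHIF1a array or without dnHIF1a amputated array 2 or 3 (0.0525 to 0.147). It was also lost with a trended and robust prior (0.0508). The type XIV gene col14a1a and the type IX genes col9a1b, col9a2 and col9a3 were not called, with differences between -0.13 and 0.11 in both lines.

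Of the 7 other collagens, the beaded filament gene col6a3 rose and the short-chain network gene col8a1a fell. The col6a3 probe set read 7.38, 7.66 and 7.42 in unamputated WT, 9.06, 9.20 and 9.13 in amputated WT, 7.97, 8.27 and 7.78 in unamputated dnHIF1a and 8.73, 8.90 and 8.98 in amputated dnHIF1a hearts. The unamputated groups did not overlap, nor did the amputated ones. The rise was 3.12-fold in WT (1.64 ± 0.12, adjusted p = 1.95e-06) and 1.82-fold in dnHIF1a (0.86 ± 0.12, adjusted p = 0.00072). The fall of col8a1a in WT was 0.46 on the log2 scale (SE 0.08, adjusted p = 0.00159), from 4.18, 4.39 and 4.18 to 3.80, 3.68 and 3.89, near the lower end of the scale. The dnHIF1a arrays lay between 3.90 and 4.04 in both states. The genes col10a1a, col10a1b, col17a1b, col28a1a and col28a2a were not called in either line. Among them col10a1b read 0.46 ± 0.20 in WT and was called there without WT amputated array 2 (0.70, adjusted p = 0.0198).

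No gene of elastic fibres or their microfibrils was called by limma's test. The fibulin-4 gene efemp2b read 0.14 ± 0.16 in WT and -0.22 ± 0.16 in dnHIF1a, and the fibulin gene fbln1 0.05 ± 0.08 and -0.24 ± 0.08 (adjusted p = 0.0671 in dnHIF1a). The last was the 1 value of these with an unadjusted p under 0.05. A second probe set of fbln1 was not called, with -0.17 in WT (adjusted p = 0.305) and -0.04 in dnHIF1a (0.887).

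Matricellular proteins bind matrix and receptors without building fibres. The gene of SPARC, a collagen-binding protein of wounds, read 9.18, 9.01 and 9.14 in unamputated and 11.10, 10.73 and 11.31 in amputated WT hearts, and 9.65, 9.83 and 9.63 against 10.41, 10.65 and 10.56 in dnHIF1a hearts. The 2 WT groups held both its lowest and its highest values, with the dnHIF1a groups between them. The rise of sparc was 3.83-fold in WT (1.94 ± 0.13, adjusted p = 7.91e-07) and 1.79-fold in dnHIF1a (0.84 ± 0.13, adjusted p = 0.00131). The thrombospondin gene thbs4b read 4.76, 5.16 and 5.25 before and 6.89, 7.05 and 7.06 after amputation in WT, 3.85-fold higher (1.94 ± 0.15, adjusted p = 3.99e-06). In dnHIF1a hearts it read 4.86, 4.78 and 4.81 before and 5.34, 4.74 and 5.29 after amputation, and these groups overlapped. That difference was 0.31 ± 0.15 (adjusted p = 0.262), and it was called without dnHIF1a amputated array 2 (0.50, adjusted p = 0.0376).

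The thrombospondin gene thbs1b, whose product in mammals activates latent TGF-beta, rose in WT by 0.90 ± 0.17 (adjusted p = 0.00295) from values of 3.61 to 3.95. In dnHIF1a it read 0.41 ± 0.17 (adjusted p = 0.174), called when only the dnHIF1a groups entered the fit (0.0207). The related gene thbs3a did not pass the test, with 0.00 ± 0.15 and 0.04 ± 0.15, and the tenascin C gene tncb read -0.28 ± 0.12 in WT and 0.01 ± 0.12 in dnHIF1a. Without WT unamputated array 1 the WT value of tncb was called lower (-0.39, adjusted p = 0.0262). A second probe set of tncb was not called, with -0.13 in WT (adjusted p = 0.196) and -0.16 in dnHIF1a (0.206).

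Among the proteoglycans and their partners, 5 of 7 rose in WT and 3 of 7 in dnHIF1a, beside 11.7% and 5.83% of all genes. The difference of the responses was called for 0 of these 7 by limma's test (2 lower at an unadjusted p under 0.05). Decorin, the product of dcn, is a small proteoglycan that binds collagen fibres. Its probe set read 9.5, 9.55 and 9.89 in unamputated and 10.81, 10.63 and 10.99 in amputated WT hearts, 2.24-fold higher (1.16 ± 0.12, adjusted p = 3.82e-05). In dnHIF1a hearts it rose 1.51-fold (0.59 ± 0.12, adjusted p = 0.0081), from 9.96, 9.89 and 9.75 to 10.43, 10.35 and 10.59. The matrilin gene matn4, of an adapter protein between matrix fibres, rose by 0.93 ± 0.15 in WT and 0.81 ± 0.15 in dnHIF1a. The versican gene vcanb rose by 0.66 ± 0.09 and 0.34 ± 0.09 from levels under 3.60. Its dnHIF1a call (adjusted p = 0.0305) did not hold without unamputated array 1 or 3 or any amputated array of that line (up to 0.124), and with the array number as a block (0.0519).

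The biglycan gene bgnb read 0.46 ± 0.13 in WT (adjusted p = 0.023) and 0.26 ± 0.13 in dnHIF1a (adjusted p = 0.266). Its WT call was lost without WT unamputated array 2 or 3 or WT amputated array 2 or 3 (0.0569 to 0.0765). The hyaluronan link protein gene hapln1a rose in WT by 0.60 ± 0.16 (adjusted p = 0.0187) and read 0.14 ± 0.16 in dnHIF1a. That WT call was lost without WT unamputated array 2 or WT amputated array 2 or 3 (0.0532 to 0.0682). Of the 5 other probe sets of hapln1a none was called in WT, and the next by mean level read 0.59 (adjusted p = 0.112). The genes hapln2 and matn1 were not called, with differences between -0.11 and 0.02.

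The measured integrins were 4 alpha chains and 1 beta chain. The alpha 5 gene itga5 encodes part of the fibronectin receptor. It read 5.69, 5.57 and 5.57 in unamputated and 5.97, 5.87 and 5.84 in amputated WT hearts, and 5.49, 5.06 and 5.46 against 6.37, 6.71 and 6.71 in dnHIF1a hearts. The amputated dnHIF1a arrays were above all others. The difference was 0.28 ± 0.12 in WT, not called (adjusted p = 0.108), and 1.26 ± 0.12 in dnHIF1a, a 2.39-fold rise (adjusted p = 5.12e-05).

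The alpha E gene itgae.2, known in mammals from lymphocytes of epithelia, rose in both lines, by 0.69 ± 0.16 (adjusted p = 0.00737) and 0.99 ± 0.16 (adjusted p = 0.00159). Its arrays read 3.76 to 4.36 without and 4.55 to 5.18 with amputation. Among all genes, 11.7% rose and 14.5% fell in WT, and 5.83% rose and 5.13% fell in dnHIF1a. Of 15 macrophage and leukocyte markers, 8 rose and 1 fell in WT. In dnHIF1a 11 of these 15 markers rose, with 0 lower by limma's test (0 at an unadjusted p under 0.05). Their mean level was 7.81 to 7.94 and 8.40 to 8.65 in unamputated and amputated WT, and 6.75 to 7.07 and 7.82 to 8.04 in dnHIF1a. The part of leukocytes in the values of itgae.2 was not tested. In these whole-heart samples a change in the number of cells of a type and a change in RNA per cell cannot be told apart. The thrombocyte integrin gene itga2b ranged from 4.83 to 5.89 and was not called, and the laminin receptor gene itga6b did not leave 3.42 to 3.78. The beta chain gene itgb5 read 0.30 ± 0.13 in WT (adjusted p = 0.11) and 0.02 ± 0.13 in dnHIF1a. It was called in WT without WT unamputated array 2 (0.42, adjusted p = 0.0316) and with the array number as a block (0.0253).

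Collagen-processing genes rose in 3 of 7 cases in WT and in 6 of 7 in dnHIF1a, beside 11.7% and 5.83% of all genes. The difference of the responses was called for 0 of the 7 by limma's test (2 higher and 1 lower at an unadjusted p under 0.05). The lysyl oxidase gene loxa read 3.57, 3.57 and 3.51 before and 4.94, 4.69 and 5.91 after amputation in WT. In dnHIF1a hearts it read 3.32, 3.40 and 3.49 before and 4.24, 4.42 and 4.47 after. The groups were apart in both lines, by 1.63 ± 0.22 in WT (adjusted p = 0.000334) and by 0.97 ± 0.22 in dnHIF1a (adjusted p = 0.0163). The dnHIF1a call did not hold without unamputated array 1 or amputated array 2 or 3 of that line (0.0522 to 0.0608). The lysyl oxidase-like gene loxl2b rose 2.72-fold in WT (1.44 ± 0.15, adjusted p = 4.98e-05) and 1.59-fold in dnHIF1a (0.67 ± 0.15, adjusted p = 0.0163). Its dnHIF1a call was lost without dnHIF1a unamputated or amputated array 2 or 3 (0.0569 to 0.0635). The Hsp47 gene serpinh1b rose by 1.08 ± 0.23 in WT (adjusted p = 0.00582) and 1.22 ± 0.23 in dnHIF1a (adjusted p = 0.00577). Its amputated values ran from 7.88 to 8.97 and its unamputated ones from 7.00 to 7.96.

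The hydroxylase genes are 4 of these collagen-processing genes. Of the 4, 0 rose in WT by limma's test (1 at an unadjusted p under 0.05) and 3 rose in dnHIF1a, beside 11.7% and 5.83% of all genes. The difference of the responses was called for 0 of 4 (2 at an unadjusted p under 0.05). The prolyl 4-hydroxylase gene p4ha1b read 8.61, 8.13 and 8.71 in unamputated and 9.02, 8.80 and 8.95 in amputated WT hearts, a difference of 0.44 ± 0.18 that was not called (adjusted p = 0.0961). In dnHIF1a hearts it rose 1.75-fold (0.81 ± 0.18, adjusted p = 0.0138), from 7.50, 7.06 and 7.58 to 8.16, 8.49 and 7.91. The second gene of such a subunit, p4ha2, read 8.25, 8.14 and 8.28 before and 8.17, 7.96 and 8.13 after amputation in WT (-0.14 ± 0.08, adjusted p = 0.242). In dnHIF1a it rose from 7.37, 7.23 and 7.44 to 7.68, 7.61 and 7.70 (0.32 ± 0.08, adjusted p = 0.0265). For both genes the amputated dnHIF1a hearts stayed below the mean of unamputated WT hearts, 8.48 for p4ha1b and 8.22 for p4ha2, except for 1 array of p4ha1b.

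The lysyl hydroxylase gene plod1a rose in dnHIF1a by 0.43 ± 0.10 (adjusted p = 0.0216) and read 0.07 ± 0.10 in WT. Its relative plod3 fell in WT by 0.34 (SE 0.11, adjusted p = 0.04) with overlapping groups, and read -0.04 ± 0.11 in dnHIF1a. Several of these calls depend on single arrays. In dnHIF1a that of p4ha1b was lost without unamputated or amputated array 2 (up to 0.058). The call of p4ha2 was lost without unamputated array 1 or 2 or amputated array 1 or 3 (up to 0.108), and that of plod1a without unamputated array 1 or 2 or any amputated dnHIF1a array (up to 0.0823). The fall of plod3 was lost without any single array other than WT unamputated array 2 and WT amputated array 3 (up to 0.14), and with only the WT groups fitted (0.124).

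The 2 measured genes of tissue inhibitors of metalloproteinases rose in WT, where 11.7% of all genes rose. The timp2b probe set read 6.36, 5.40 and 5.71 in unamputated and 7.19, 6.72 and 7.83 in amputated WT hearts, and 4.90, 4.98 and 4.98 against 6.23, 6.42 and 6.28 in dnHIF1a hearts. Its rise was 2.68-fold in WT (1.42 ± 0.25, adjusted p = 0.00177) and 2.56-fold in dnHIF1a (1.36 ± 0.25, adjusted p = 0.00501). The related gene timp2a rose in WT by 0.99 ± 0.13 (adjusted p = 0.000197) and read 0.26 ± 0.13 in dnHIF1a (adjusted p = 0.253).

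**Figure D2:**
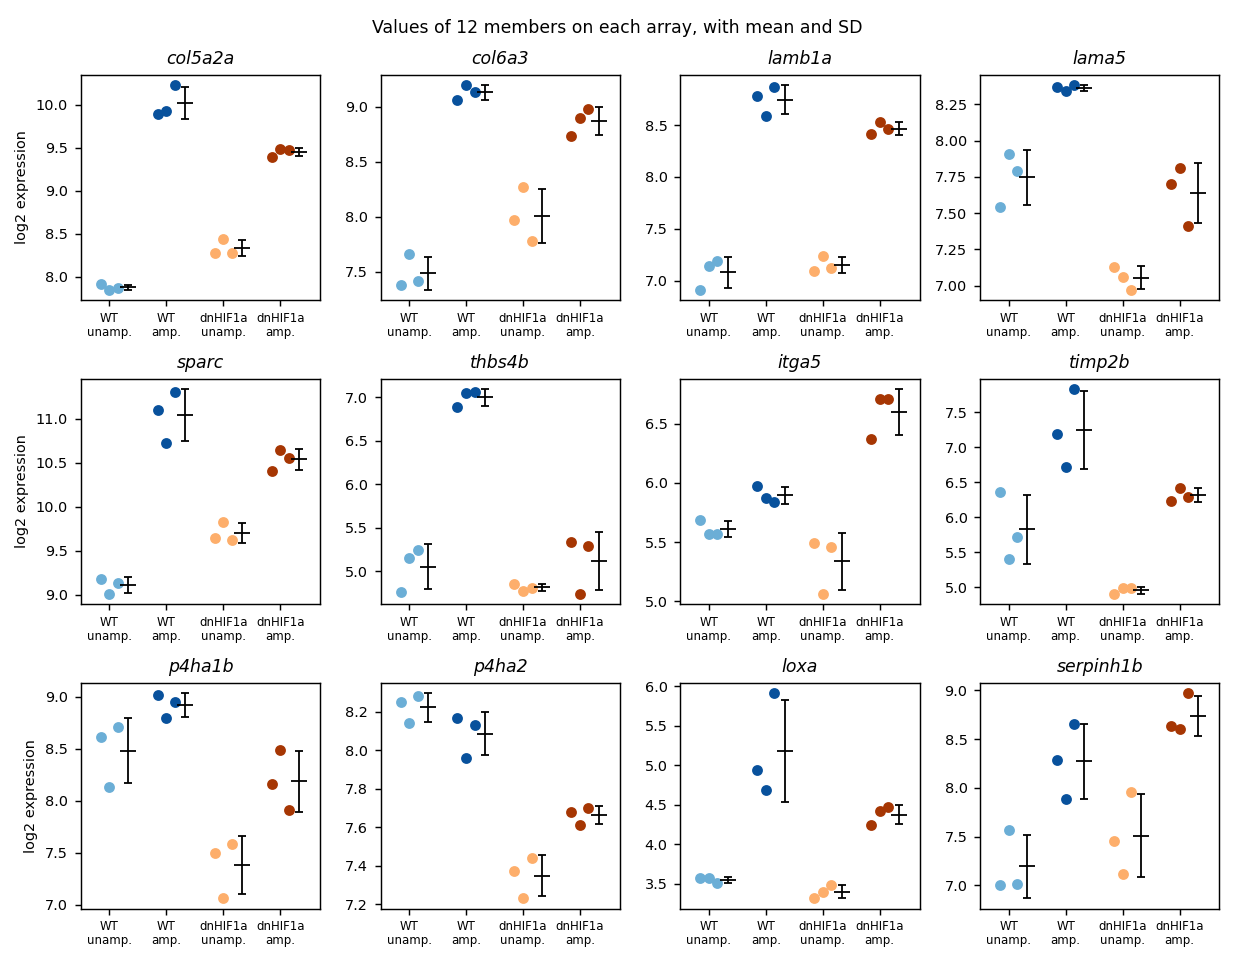
Log2 expression of 12 of the genes on each array (points), with the mean and SD of each group beside the points. Vertical scales differ between panels. Amputated arrays lie above unamputated ones in both lines for col5a2a, col6a3, lamb1a, sparc and loxa, the 3 amputated WT arrays of thbs4b stand alone near 7, and all dnHIF1a arrays of p4ha2 lie under all WT arrays.

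Markers of other cell types differed between the same groups. Over all genes 11.7% rose and 14.5% fell in WT, and 5.83% rose and 5.13% fell in dnHIF1a. Of 8 epicardium and fibroblast markers 3 rose in each line, with 0 lower by limma's test (0 at an unadjusted p under 0.05), and their mean level went from 6.0 to 6.26 on unamputated WT arrays to 6.72 to 6.90 on amputated ones. In dnHIF1a it went from 6.36 to 6.38 to 6.81 to 6.89. The markers that rose included fn1b (2.74 ± 0.18 in WT, 1.81 ± 0.18 in dnHIF1a) and prrx1a (1.06 ± 0.11 and 0.56 ± 0.11). The median difference of the 8 was 0.33 in WT and 0.19 in dnHIF1a. Of 5 smooth muscle markers 3 rose and 1 fell in WT and 1 rose and 1 fell in dnHIF1a, with mean levels of 8.01 to 8.32, 8.89 to 9.17, 8.86 to 9.21 and 9.47 to 9.59 in the order WT unamputated, WT amputated, dnHIF1a unamputated, dnHIF1a amputated. Of 5 endothelium and endocardium markers tek fell in both lines, by 0.54 in WT (SE 0.13, adjusted p = 0.0121) and 0.48 in dnHIF1a (SE 0.13, adjusted p = 0.0394), and 0 rose by limma's test (0 at an unadjusted p under 0.05). Of 10 epithelium markers 3 rose in WT and 2 in dnHIF1a, with 0 lower in either by limma's test (0 at an unadjusted p under 0.05). The part of these cell types in the matrix values was not tested. Of 18 erythrocyte markers 11 rose and 2 fell in WT, with mean levels of 7.50 to 7.90 before and 8.24 to 8.98 after amputation, and 0 rose (1 at an unadjusted p under 0.05) and 1 fell in dnHIF1a (7.77 to 8.34 and 7.79 to 8.60).

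With the erythrocyte mean as a covariate 14 of the 25 WT calls and 21 of the 21 dnHIF1a calls were kept. The WT ranges of that mean did not overlap, so amputation and this covariate cannot be fully told apart. The WT calls lost with it were those of col15a1a (1.08, adjusted p = 0.0686), lama4 (0.37, 0.175), col12a1b (0.15, 0.551), thbs1b (0.46, 0.318), bgnb (0.24, 0.554) and matn4 (0.87, 0.087). The others lost were itgae.2 (0.34, adjusted p = 0.445), loxa (1.16, 0.0779), plod3 (-0.44, 0.197), serpinh1b (0.60, 0.375) and timp2b (1.08, 0.163).

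The difference of the amputation responses, dnHIF1a minus WT, tests whether the lines responded unequally. It was called for 5 genes. Of the 55 genes 4, or 7.27%, had a lower response in dnHIF1a, beside 1.60% of all genes, and 1 gene, or 1.82%, had a higher one, beside 0.989%. The 4 with the lower response were thbs4b (-1.64 ± 0.22, adjusted p = 0.00433), sparc (-1.10 ± 0.18, adjusted p = 0.0114), col5a2a (-1.02 ± 0.13, adjusted p = 0.00342) and col6a3 (-0.78 ± 0.17, adjusted p = 0.0338). For sparc, col5a2a and col6a3, the unamputated dnHIF1a hearts started above WT and the amputated ones ended below it, though the amputated line difference of col6a3 was not called. For thbs4b the unamputated groups overlapped and the amputated ones stood apart. The gene with the higher response was itga5 (0.98 ± 0.17, adjusted p = 0.0144). With the erythrocyte covariate none of the 5 differences was called by limma's test. The values were -1.51 for thbs4b (adjusted p = 0.0571), -0.88 for sparc (0.12), -0.92 for col5a2a (0.0544), -0.66 for col6a3 (0.237) and 0.88 for itga5 (0.13). The erythrocyte mean itself went from 7.71 to 8.73 in WT and from 8.04 to 8.18 in dnHIF1a. This covariate and the difference of the responses therefore cannot be fully told apart. The dimmer probe set of col5a2a showed no difference (0.01, adjusted p = 0.981).

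The call of col6a3 was lost without any of 8 arrays (WT unamputated 1, WT amputated 1, 2 and 3, dnHIF1a unamputated 1 and 2, dnHIF1a amputated 1 and 2), with adjusted p up to 0.0908. Without single arrays the number of genes with a lower response ran from 3 to 7, and the highest was reached without WT unamputated array 3, when col11a1a (-1.02, adjusted p = 0.0307), dcn (-0.70, 0.028) and timp2a (-0.87, 0.0123) were called too. These had -0.91 ± 0.22 (adjusted p = 0.0535), -0.57 ± 0.17 (0.101) and -0.74 ± 0.18 (0.0525) over all arrays. The gene col11a1a was also called without WT amputated array 1 (0.0296), timp2a without WT amputated array 2 (0.0301), and loxl2b (-0.78 ± 0.22, adjusted p = 0.0866) without WT amputated array 2 (-0.97, 0.0138). The value of p4ha2 was 0.45 ± 0.11 (adjusted p = 0.0606), and it was called with the array number as a block (0.0354) and after a repeated quantile normalization (0.0334). The latter setting and leaving out the dimmest probe sets also called col11a1a (0.049 and 0.0489) and timp2a (0.0369 and 0.048). In addition timp2a was called with a trended and robust prior (0.0489) and the block (0.0479).

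Across the 55 genes the 2 responses had a Pearson correlation of 0.74 and a Spearman correlation of 0.78. This describes genes measured on the same arrays and normalized together, and genes are not replicates. Of the 17 genes that rose in both lines, 14 had the larger difference in WT and 3 in dnHIF1a. The 3 were lama4, itgae.2 and serpinh1b, and their differences of responses of 0.12 ± 0.12, 0.30 ± 0.22 and 0.15 ± 0.33 were not called. Which line had the larger difference was not counted over all genes, of which 11.7% rose in WT and 5.83% in dnHIF1a. The 6 genes that rose in WT and were not called in dnHIF1a were col11a1a, thbs1b, thbs4b, bgnb, hapln1a and timp2a, and of these only thbs4b passed the test of the difference. The 4 that rose in dnHIF1a and were not called in WT were itga5, p4ha1b, p4ha2 and plod1a, and of these only itga5 passed it.

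**Figure D3:**
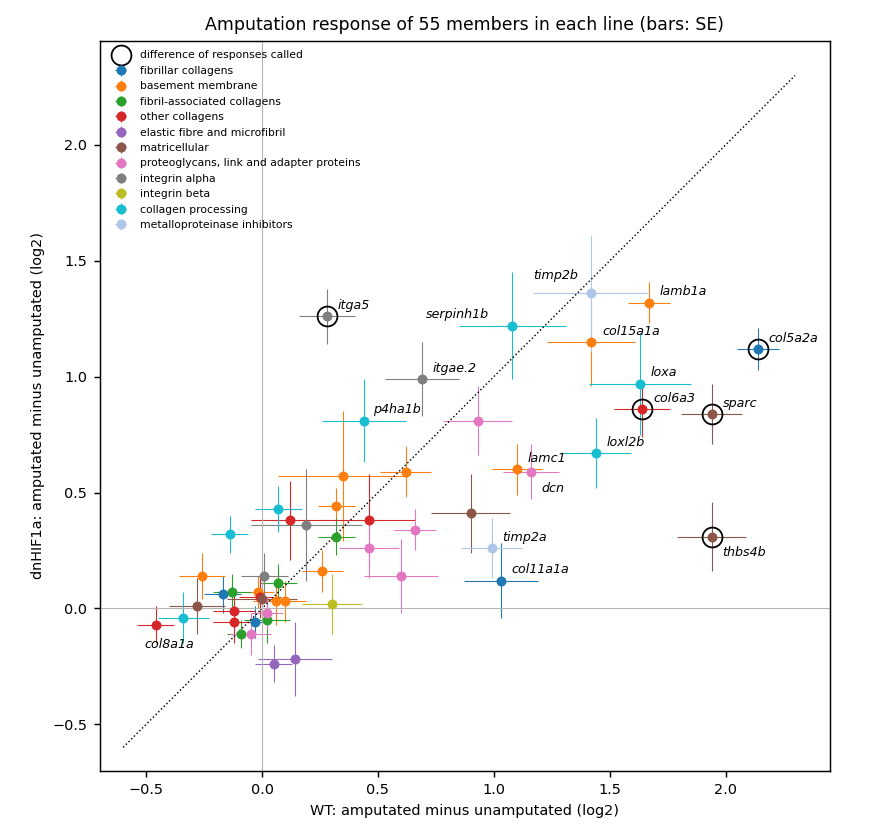
Amputated minus unamputated difference of each of the 55 genes in WT (horizontal) and dnHIF1a (vertical), in log2 units with standard errors, coloured by role. The dotted line marks equal responses, and rings mark the 5 genes whose responses differed in limma's test, with itga5 above the line and thbs4b, sparc, col5a2a and col6a3 below it.

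The comparison of unamputated hearts asks how the lines differ without injury, and it shares its arrays with the amputation comparisons. Of the 55 genes 5, or 9.09%, were higher and 5, or 9.09%, lower in dnHIF1a, beside 6.30% and 6.24% of all genes, so that the shares were close to the background. The lower genes included both prolyl 4-hydroxylase subunit genes. The 5 other collagen-processing genes were not called, with differences from -0.25 to 0.32 (adjusted p of 0.156 or more). For p4ha1b the difference was -1.10 ± 0.18 (adjusted p = 0.00163), which is 2.15-fold, and for p4ha2 -0.88 ± 0.08 (adjusted p = 2.04e-05), or 1.84-fold. The others lower were timp2b (-0.87 ± 0.25, adjusted p = 0.0425), lama5 (-0.69 ± 0.11, adjusted p = 0.00145) and col12a1b (-0.43 ± 0.08, adjusted p = 0.00486). For lama5 the WT arrays read 7.54, 7.91 and 7.79 and the dnHIF1a arrays 7.13, 7.06 and 6.97. For col12a1b they read 7.73, 7.66 and 7.70 against 7.17, 7.28 and 7.34. None of these 5 genes had overlapping groups. They were picked by the call on the same arrays, and the count was not made over all genes, so it adds no support.

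The genes higher in unamputated dnHIF1a hearts were sparc (0.59 ± 0.13, adjusted p = 0.00893), lamc1 (0.56 ± 0.11, adjusted p = 0.00679), col6a3 (0.52 ± 0.12, adjusted p = 0.0137), col5a2a (0.45 ± 0.09, adjusted p = 0.00579) and col15a1b (0.31 ± 0.09, adjusted p = 0.0434). The lamc1 probe set read 5.08, 4.71 and 4.83 in WT and 5.41, 5.36 and 5.54 in dnHIF1a. The col15a1b values lay between 3.01 and 3.55. The call of col15a1b was lost without any single array except WT amputated 3 and dnHIF1a unamputated 3 (up to 0.168), with the array number as a block (0.0541), with only these groups in the fit (0.11) and with the erythrocyte covariate (0.0591). That of col6a3 was lost without dnHIF1a unamputated array 2 (0.0528) and with only these groups (0.0585). That of timp2b was lost without any of 9 arrays, all except WT unamputated 2 and WT amputated 2 and 3 (up to 0.127). It was also lost with a trended and robust prior (0.0735). The dimmer probe set of col5a2a read 0.15 (adjusted p = 0.371).

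Some genes not called over all arrays were called without 1. These were plod1a (-0.38, adjusted p = 0.0177) without WT unamputated array 2, and lama4 (0.31, 0.0401), hapln1a (0.66, 0.0219) and timp2a (0.42, 0.0369) without WT unamputated array 3. They further include hapln1a without dnHIF1a amputated array 2 (adjusted p = 0.0441) and col18a1a (-0.96, 0.0434) without dnHIF1a unamputated array 2. With the erythrocyte covariate col18a1a (-1.0, adjusted p = 0.00369) and hapln1a (0.64, 0.0188) were called. In the same comparison 6.30% of all genes were higher and 6.24% lower in dnHIF1a. There 4 of 5 smooth muscle markers were higher, with 0 lower by limma's test (1 at an unadjusted p under 0.05). Leukocyte markers were lower in 10 of 15 cases, with 0 higher (0 at an unadjusted p under 0.05). Of 5 endothelium markers plvapb was higher (0.95 ± 0.15), and erg (-1.10 ± 0.25) and tie1 (-0.25 ± 0.07) were lower. Of 8 epicardium and fibroblast markers 2 were higher, with 0 lower by limma's test (0 at an unadjusted p under 0.05), and of 8 heart muscle markers 1 was higher and 2 lower. Of 10 epithelium markers 1 was higher and 0 lower (0 at an unadjusted p under 0.05), and of 18 erythrocyte markers 0 were higher (1 at an unadjusted p under 0.05) and 1 lower. Their part in the line differences of the matrix genes was not tested.

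The comparison of amputated hearts asks how the lines differ 7 days after injury. Here 12 of the 55 genes, or 21.8%, were lower in dnHIF1a, beside 7.43% of all genes, and 2, or 3.64%, were higher, beside 6.77%. The widest gap was that of thbs4b, 3.67-fold lower (-1.88 ± 0.15, adjusted p = 1.39e-05). Next were col11a1a and timp2b (-0.94 ± 0.16, adjusted p = 0.00224 and -0.94 ± 0.25, adjusted p = 0.0282), loxa (-0.80 ± 0.22, adjusted p = 0.0333), p4ha1b (-0.74 ± 0.18, adjusted p = 0.0179) and lama5 (-0.72 ± 0.11, adjusted p = 0.00125). The genes loxl2b (-0.61 ± 0.15), col5a2a (-0.57 ± 0.09), sparc (-0.51 ± 0.13), timp2a (-0.45 ± 0.13), col12a1b (-0.44 ± 0.08) and p4ha2 (-0.42 ± 0.08) completed the lower set, with adjusted p from 0.00155 to 0.0341. Amputated lama5 arrays read 8.37, 8.34 and 8.38 in WT and 7.70, 7.81 and 7.41 in dnHIF1a. Higher in dnHIF1a were itga5 (0.70 ± 0.12, adjusted p = 0.0025) and lama4 (0.37 ± 0.08, adjusted p = 0.0139).

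By role the lower set held 4 of 7 collagen-processing genes, both inhibitors of metalloproteinases, 2 of 4 fibrillar collagens and 2 of 5 matricellular genes. It also held 1 of 11 basement membrane genes and 1 of 5 fibril-associated collagens. None of the 7 other collagens (1 at an unadjusted p under 0.05), the 2 elastic fibre genes or the integrins was lower by limma's test. Beside these counts, 7.43% of all genes were lower and 6.77% higher in amputated dnHIF1a hearts. Of the proteoglycan class 0 of 7 were called by limma's test (2 lower at an unadjusted p under 0.05), and dcn came nearest (-0.35 ± 0.12, adjusted p = 0.0716). The other processing genes plod1a, plod3 and serpinh1b read 0.11 ± 0.10, 0.10 ± 0.11 and 0.46 ± 0.23 and were not called. Of 15 leukocyte markers 8 were lower and 0 higher in amputated dnHIF1a hearts, and of 18 erythrocyte markers 4 were lower and 0 higher (0 higher at an unadjusted p under 0.05 in both lists). Epithelium markers were lower in 3 and higher in 0 of 10 (0 at an unadjusted p under 0.05). Smooth muscle markers were higher in 2 and lower in 1 of 5, heart muscle markers higher in 2 and lower in 0 of 8 (0 at an unadjusted p under 0.05), and endothelium markers higher in 1 and lower in 1 of 5. Of 8 epicardium and fibroblast markers 0 were called by limma's test (1 lower at an unadjusted p under 0.05). The part of these cell types in the matrix values was not tested.

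Without single arrays the number of genes lower in amputated dnHIF1a hearts ran from 6 to 15, and it was 7 without WT amputated array 1 or 3 and 6 without dnHIF1a amputated array 1. The calls lost were those of sparc (without WT amputated 1 or 3 or dnHIF1a amputated 1, up to 0.0847), loxl2b (without the same arrays, up to 0.0909), p4ha1b (without WT amputated 1 or 3 or dnHIF1a amputated 1 or 3, up to 0.0669) and loxa (without any amputated dnHIF1a array, up to 0.114). The calls of timp2a (up to 0.134) and timp2b (up to 0.0973) were lost without WT amputated array 1 or 3 or any amputated dnHIF1a array. That of lama4 was lost without WT amputated array 1 or dnHIF1a amputated array 1 (up to 0.0632), and its second probe set read -0.00 (adjusted p = 0.985). Calls gained were those of lamb1a (without WT unamputated 1, adjusted p = 0.0394, or WT amputated 2, 0.0349), dcn (without WT unamputated 3, 0.0385, or WT amputated 2, 0.0445) and thbs1b (without WT amputated 2, 0.0342). With the erythrocyte covariate 8 of the 14 calls were kept, and lama4 (0.34, adjusted p = 0.0888), sparc (-0.37, 0.164), loxa (-0.55, 0.242), loxl2b (-0.49, 0.151), timp2a (-0.46, 0.121) and timp2b (-0.75, 0.18) were lost. With only these groups in the fit loxa was lost (0.0743), and with a trended and robust prior loxa (0.0594) and timp2b (0.0516). The second probe set of col5a2a read 0.16 (adjusted p = 0.314), against -0.57 for the first.

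Over both states 17 genes differed between the lines in at least 1, and 7 in both, counts that were not made over all genes. Of these 7, the genes p4ha1b, p4ha2, lama5, col12a1b and timp2b were lower in dnHIF1a in both states, while sparc and col5a2a were higher without and lower with amputation. Over all genes 6.30% were higher and 6.24% lower without amputation, and 6.77% and 7.43% with it. The calls of timp2b in both states and those of p4ha1b and sparc in amputated hearts were lost without some single arrays. The dimmer probe set of col5a2a was not called in either state. For the 5 lower genes the differences of the responses were 0.37 ± 0.25, 0.45 ± 0.11, -0.03 ± 0.16, -0.01 ± 0.12 and -0.07 ± 0.36 in that order, and none was called over all arrays by limma's test.

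**Figure D4:**
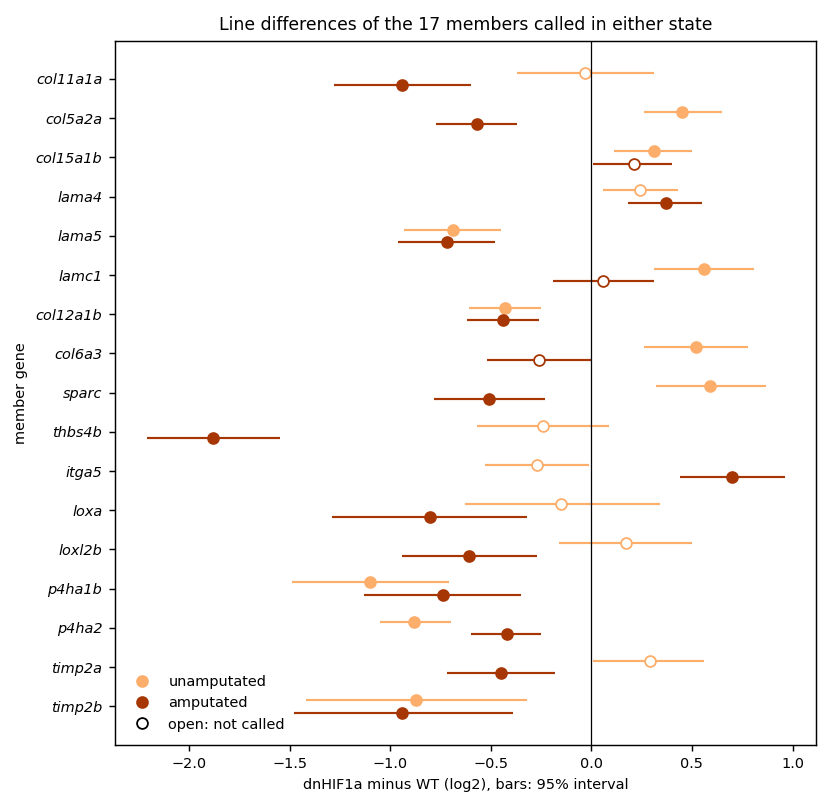
Difference between dnHIF1a and WT, in log2 units with 95% intervals, for the 17 genes called in unamputated (light) or amputated (dark) hearts, with open points where that comparison was not called. The points of p4ha1b, p4ha2, lama5, col12a1b and timp2b lie left of 0 in both states, those of sparc and col5a2a change sides, and the dark point of thbs4b lies farthest to the left at -1.88.

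Related genes outside the symbol rule were read from 3 lists, and no list was tested as a set. Over all genes 11.7% rose and 14.5% fell in WT, and 5.83% rose and 5.13% fell in dnHIF1a. Between the lines 6.30% were higher and 6.24% lower in unamputated dnHIF1a hearts, and 6.77% and 7.43% in amputated ones. The difference of the responses was higher for 0.989% and lower for 1.60%. Some of the list counts lie near these shares. Of 20 measured genes of collagen folding and secretion, 5 rose and 3 fell in WT, and 4 rose in dnHIF1a with 0 lower by limma's test (1 at an unadjusted p under 0.05). The gene pcolce2b, whose product enhances the trimming of procollagen, rose by 2.54 ± 0.16 in WT (adjusted p = 5.33e-07) and 1.93 ± 0.16 in dnHIF1a (adjusted p = 1.76e-05). The gene creb3l2, of a transcription factor of the secretory pathway, rose by 0.66 ± 0.09 and 0.57 ± 0.09. The chaperone gene hsp90b1 fell in WT by 0.83 (SE 0.16, adjusted p = 0.00278), and the coat protein gene sec13 by 0.36 (SE 0.08, adjusted p = 0.00605). The difference of the responses was called for fkbp10b, of a collagen-folding isomerase (-0.78 ± 0.18, adjusted p = 0.0447). In unamputated hearts ppib (0.38 ± 0.09, adjusted p = 0.0202) and creb3l2 (0.32 ± 0.09, adjusted p = 0.0336) were higher in dnHIF1a, with 0 lower by limma's test (2 at an unadjusted p under 0.05). In amputated hearts fkbp10b (-0.67 ± 0.13, adjusted p = 0.00489) and the collagen 3-hydroxylation gene crtap (-0.41 ± 0.10, adjusted p = 0.014) were lower in dnHIF1a and sec13 was higher (0.28 ± 0.08).

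Of 18 genes of TGF-beta signalling, a pathway that drives matrix genes in fibroblasts, 6 rose and 2 fell in WT. In dnHIF1a 1 rose and 0 fell by limma's test (6 and 0 at an unadjusted p under 0.05). The connective tissue growth factor gene ccn2a rose in both lines, by 0.95 ± 0.15 and 0.97 ± 0.15, and the ligand gene tgfb1a in WT by 0.55 ± 0.09. The receptor gene acvr1ba (-0.35 ± 0.07) and the signal transducer gene smad3b (-0.34 ± 0.08) fell in WT. Between the lines without amputation 1 was higher, tgfb1a (0.36 ± 0.09, adjusted p = 0.0196), and 1 lower, and with amputation 0 were higher (2 at an unadjusted p under 0.05) and 1 lower. The lower gene was smad3b in both states. In dnHIF1a smad3b was lower than in WT without amputation (-0.79 ± 0.08, adjusted p = 6.08e-05) and with it (-0.49 ± 0.08, adjusted p = 0.0023).

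Of 27 genes of the integrin adhesion complex, the plaque that links integrins to actin, 9 rose and 1 fell in WT, and 9 rose and 0 fell in dnHIF1a (15 and 0 at an unadjusted p under 0.05). The filamin gene flna rose by 0.91 ± 0.08 and 0.65 ± 0.08, and the tetraspanin gene cd9b by 1.77 ± 0.19 and 1.73 ± 0.19. Between the lines, 5 were higher and 4 lower in unamputated dnHIF1a hearts, and 6 higher and 1 lower in amputated ones. The gene lims2, of an adapter that binds integrin-linked kinase, was higher in dnHIF1a than in WT by 2.01 ± 0.11 without amputation (adjusted p = 3.37e-07) and by 2.24 ± 0.11 with it (adjusted p = 3.04e-07). Another adapter gene of the same complex, parvaa, was higher in amputated dnHIF1a hearts by 1.09 ± 0.12 (adjusted p = 8.79e-05). Lower in unamputated dnHIF1a hearts were, among others, the adapter gene bcar1 (-0.69 ± 0.17, adjusted p = 0.0172) and the syndecan gene sdc4 (-0.44 ± 0.10, adjusted p = 0.0165), and the gene lower in amputated ones was cd9b (-0.61 ± 0.19, adjusted p = 0.0483). The difference of the responses was called for 1 gene, the caveolin gene cav1 (-0.73 ± 0.17, adjusted p = 0.0484).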

How the data were processed

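Total RNA from zebrafish hearts (200 ng, labelled with biotin) was hybridised to 12 arrays. Each deposited number is the log2 level of a probe set, and per the submitters' processing notes, which give no versions or roles, the authors used RMA and limma. Of 15617 probe sets 115 controls were left out. The platform table gave 10795 probe sets 1 gene, 135 several and 4572 none, and symbols matched RefSeq by Entrez identifier for 10711.

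All 12 arrays entered a limma model of 4 group means (R 4.3.3, limma 3.58.1), which had 8 residual degrees of freedom and a prior of 4.46. The moderated two-sided test was adjusted by the Benjamini-Hochberg method. The members, lists and alternatives were chosen with earlier results of these data known. Full statistics were given for up to 8 higher and 8 lower members per comparison with the largest called difference and non-overlapping groups, and for the member of each role with the smallest p in the amputation comparisons. Further called members were named after their values were seen. Arrays sharing a number had within-group deviations correlated from -0.191 to 0.133, so the number was no block. The number of arrays limits the precision. No sequences were printed, since sequence tables were not used here.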

Additional observations from a re-analysis of the deposited data

Results flagged for a closer look

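The amputation response differed between the lines in limma's test of the difference (dnHIF1a minus WT) for 5 of the genes, with -1.64 for thbs4b, -1.10 for sparc, -1.02 for col5a2a, -0.78 for col6a3 and 0.98 for itga5. With the erythrocyte mean as a covariate the values were -1.51, -0.88, -0.92, -0.66 and 0.88 in the same order. Their signs stayed and none was called, with adjusted p from 0.0544 to 0.237. The erythrocyte mean went up more in WT than in dnHIF1a, so it and the difference of the responses cannot be fully told apart.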

How the results depend on the processing

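The counts of members called moved by over 1.5 times under these settings. In WT, 23 higher and 2 lower became 13 and 1 with the erythrocyte covariate and 13 and 0 with a fold cutoff of 1 log2 unit, and 1 was lower with the dimmest probe sets left out or only these groups fitted. In dnHIF1a 21 higher became 6 with the cutoff. For the difference of the responses, 1 higher became 2 with a repeated quantile normalization or the replicate block, and 1 higher and 4 lower became 0 and 0 with the covariate. The cutoff left 0 higher. Between unamputated lines 5 higher became 3 with only these groups fitted and 0 with the cutoff, and 5 lower became 1 with the cutoff. Between amputated lines 2 higher and 12 lower became 1 and 7 with the covariate and 0 and 1 with the cutoff, and 1 was higher by the second probe set. The cutoff lowers counts by construction. Leaving out the dimmest probe sets drops dim members, and all 67 calls of members still present were kept there. For the other settings the cause was not tested.

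Leaving out single arrays gave 19 to 24 higher and 1 to 2 lower in WT, 15 to 21 and 0 in dnHIF1a, 1 and 3 to 7 for the difference, 3 to 7 and 4 to 6 between unamputated lines, and 1 to 2 and 6 to 15 between amputated lines. Of 75 member calls 52 were kept without any single array. Median centring and repeated quantile normalization kept all 75. The replicate block lost 2, the trended and robust prior 4, and the fit of only the groups compared 5. No paired result follows from the array numbers. In 4 cases the second probe set had the other sign and was not called. These were lama4 in WT (-0.02, adjusted p = 0.888) and between amputated lines (-0.00, 0.985). The others were col5a2a in the difference of the responses (0.01, adjusted p = 0.981) and between amputated lines (0.16, 0.314). The files hold no signal over background, which limits the dim members.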
